A study of Mus musculus with 8 samples.

Results

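The 10 Frizzled genes of the mouse, Fzd1 to Fzd10, were followed in notochord-derived cells (NDCs) at embryonic day 12.5 (E12.5) and at birth (postnatal day 0, P0). The members were taken by gene symbol from the 43346 gene identifiers of the count files. No measured value entered this rule, but earlier results of these data were known when the family was chosen. All 10 of the 10 members passed the filter on low counts that left 15467 genes for testing. The study compared the transcriptome of the notochord with that of the nucleus pulposus (NP), the gel-like centre of the intervertebral disc that the notochord gives rise to. Both stages came from Shh-cre;ROSA:YFP mice, in which a Cre recombinase driven from Shh switches on a yellow fluorescent protein, so that cells with a history of Shh expression are marked together with their descendants. The mark is therefore not particular to the notochord, since other Shh-expressing lineages carry it too. The 4 E12.5 samples were whole notochords dissected from the embryos of the litters NDP10.2, NPD3, NPD4 and NPD9.2, cleaned of adjoining tissue by hand and not sorted. The 4 P0 samples were NP cells shaken out of opened thoracic and lumbar discs and sorted for YFP, and their litters were named NPD26, NPD27, NPD28 and NPD30. Each sample pooled the animals of a litter, and stage and isolation method changed together, so their contributions cannot be told apart.

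Frizzled proteins are membrane-spanning receptors that bind Wnt ligands through a cysteine-rich domain outside the cell. With the co-receptors Lrp5 and Lrp6 they recruit Dishevelled and stabilise beta-catenin, which then drives transcription with TCF/LEF factors. With other partners, among them Ror and Ptk7, the Vangl and Celsr proteins, they act in planar cell polarity and in the movements that lengthen the body axis. The family is usually divided by sequence into the subfamilies Fzd1/2/7, Fzd3/6, Fzd4/9/10 and Fzd5/8, and this order is kept here.

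The stretch inside the cell that binds Dishevelled is a Lys-Thr-X-X-X-Trp motif, in which X is any residue, close behind the last membrane-spanning helix. Every one of the 10 coding sequences held exactly 1 copy of it. The coding bases are shown because this is the contact that the receptors share, whatever their level. Each sequence is read 5′ to 3′ on the coding strand, from the Gencode M21 transcripts (GRCm38), with the Lys, Thr and Trp codons in capitals and the codons of the 3 free residues in lower case. The Fzd8 stretch is not shown.
Fzd1, chr5:4755706-4755723, minus strand: AAGACActgaattccTGG
Fzd2, chr11:102606373-102606390, plus strand: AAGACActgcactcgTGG
Fzd7, chr1:59484607-59484624, plus strand: AAGACCctgcagtcaTGG
Fzd3, chr14:65212107-65212124, minus strand: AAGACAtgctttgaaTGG
Fzd6, chr15:39033949-39033966, plus strand: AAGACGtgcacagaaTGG
Fzd4, chr7:89408241-89408258, plus strand: AAAACTcttcacacgTGG
Fzd9, chr5:135249416-135249433, minus strand: AAGACTtttcagactTGG
Fzd10, chr5:128602796-128602813, plus strand: AAGACCctgcagtccTGG
Fzd5, chr1:64735011-64735028, minus strand: AAGACTctggagtctTGG

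The motif lay 17 residues before the C-terminus in Fzd1, Fzd2 and Fzd7 alike. In Fzd3 and Fzd6 it was followed by tails of 159 and 206 residues, the longest of the family. The tails were 33 residues in Fzd4, 54 in Fzd9, 50 in Fzd10, 55 in Fzd5 and 74 in Fzd8. Translated and aligned, the 8 pairs within a subfamily shared 53.1 to 81.6% of their residues and the 37 pairs across subfamilies 37.3 to 54.9%. In 6 members, Fzd1, Fzd2, Fzd7, Fzd8, Fzd9 and Fzd10, the whole transcript lies in a single exon. Exons of Fzd5 and Fzd6 overlap genes annotated on the opposite strand, Gm38058 and Gm26704. The strand setting of the counting was not given in the sources used here, so reads from those overlaps cannot be assigned to a strand.

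Reads counted on genes numbered 4442775 to 7180221 per library at E12.5 and 6371842 to 8904050 at P0, and 3 reads corresponded to 0.353 to 0.738 CPM, reads scaled to a common library size after normalization. Between 65.2 and 77.4% of each file's total fell in rows that name no gene, and the row for reads matching more than 1 gene held 7.07 to 10.5% of the P0 libraries. NDP10.2 and NPD9.2 stood apart at E12.5, with 16.3 and 17.5% in that row against 10.6 to 11.6% and with 22.6 and 24.6% of the total counted on genes against 32.6 to 33.7% in NPD3 and NPD4. Genes that mark the notochord were present at both stages, with the mean log2 CPM of 9 such genes from 5.74 to 7.16 in E12.5 litters and from 5.15 to 6.70 in P0 litters. Of the 8 tested, Shh and Foxa1 fell and Krt19 and Cd24a rose, whereas T (brachyury) went from a mean of 584 CPM to 1319 CPM without passing the test. Noto was under the 3-read level on average at both stages.

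Genes of neighbouring tissues moved with the stage as well, and their part in the Frizzled results below was not tested. Of 7 sclerotome genes, 7 fell, from mean log2 CPM of 4.05 to 4.53 at E12.5 to 0.74 to 1.79 at P0. Of 6 skeletal muscle genes 5 were tested and 4 fell (4.44 to 6.53 against 1.11 to 2.74), with NPD4 lowest among the E12.5 litters at 4.44 and NPD9.2 highest at 6.53. All 14 leukocyte genes rose, from 1.61 to 2.83 to 5.03 to 8.36, with NPD30 lowest among the P0 litters at 5.03. Of 9 erythroid genes 6 fell (8.21 to 10.41 against 3.07 to 4.73), and of 6 osteoblast genes 4 rose (0.25 to 0.65 against 4.09 to 4.89). Of 5 genes of surface epithelium and gut, 3 were tested and 3 fell. Of 9 neural genes 7 were tested and 1 fell (3.24 to 5.66 against 3.10 to 4.87), and NPD4 stood apart from the other E12.5 litters, at 5.66 against 3.24 to 3.69, with 576 CPM of the neuronal tubulin Tubb3 against 23.2 to 43.5. Of 7 endothelial genes 1 fell (3.11 to 4.27 against 1.65 to 3.76), with NPD4 again highest at E12.5. Of 6 cartilage genes 5 were tested, of which 3 rose and 1 fell (5.51 to 7.52 against 5.95 to 7.49). In such bulk samples fewer cells of a type and less RNA per cell cannot be told apart.

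The comparison of P0 with E12.5 asked how receptor expression differed between the notochord and the newborn NP. Of the 10 Frizzled genes, 8 were lower at P0 by edgeR's quasi-likelihood test at a Benjamini-Hochberg adjusted p below 0.05, namely Fzd1, Fzd2, Fzd3, Fzd4, Fzd7, Fzd8, Fzd9 and Fzd10. None was higher, also at an unadjusted p below 0.05 and with DESeq2 or limma-voom. Fzd5 and Fzd6 did not pass. Among all 15467 genes tested, 27.9% passed in either direction, 12% as lower and 16% as higher at P0. Higher calls outnumbered lower ones, 2468 to 1853, but with upper quartile scaling the balance turned, with 2105 higher and 2322 lower. The median log2 fold change of the members was -2.32, beside 0.04 over all genes tested. In 7 members every P0 litter lay below every E12.5 litter, which was so for 14.4% of all genes. With the E12.5 litters NDP10.2 and NPD9.2, the pair with the highest muscle genes, left out, 5 members passed (Fzd1, Fzd2, Fzd3, Fzd8 and Fzd9), in a fit that called 15.2% of all genes. With NPD30 as the only P0 litter, 2 members passed, Fzd2 and Fzd3, in a fit that called 6.15% of all genes and assumes that this litter varies like the others. In that fit the adjusted p was 0.0583 for Fzd10, 0.0934 for Fzd8, 0.0971 for Fzd1, 0.181 for Fzd9, 0.468 for Fzd7 and 0.654 for Fzd4, all with lower levels at P0.

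**Figure D1:**
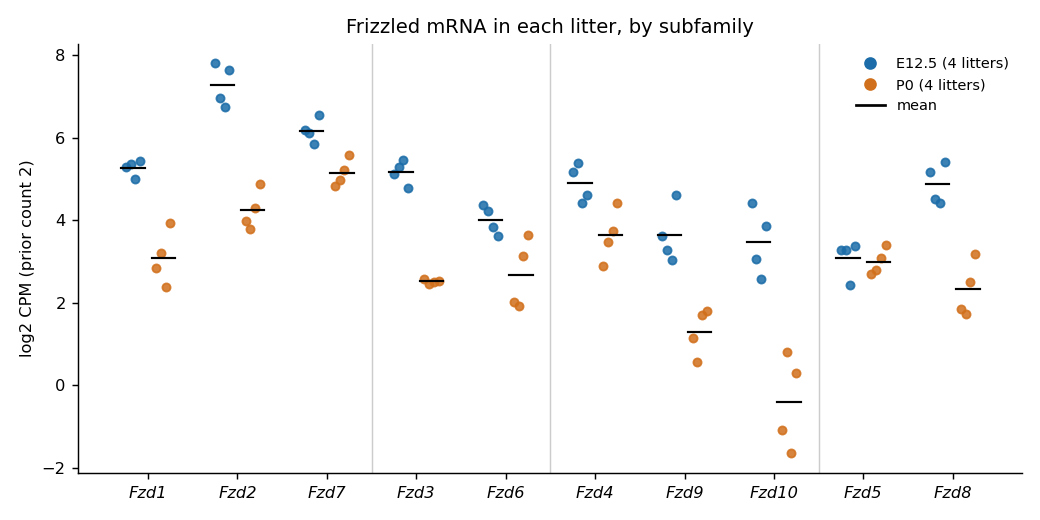
Level of each Frizzled gene in each litter, in log2 CPM with a prior count of 2, with E12.5 (blue) and P0 (orange) litters as points and the stage means as short lines. The P0 points lie below all E12.5 points in 7 genes and overlap them in Fzd4, Fzd5 and Fzd6.

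The subfamily Fzd1/2/7 held the most highly expressed members at E12.5. Fzd2 (chr11:102604396-102608058), a receptor for Wnt3a and Wnt5a with roles in palate, heart and limb development, measured 223, 124, 107 and 198 CPM in the E12.5 litters NDP10.2, NPD3, NPD4 and NPD9.2. At P0 the values were 15.6 (NPD26), 13.6 (NPD27), 19.5 (NPD28) and 29.3 CPM (NPD30). Every P0 litter lay far below the lowest E12.5 litter, NPD4. The mean went from 163 ± 56.4 CPM (SD, n = 4) to 19.5 ± 6.98 CPM (SD, n = 4), 8.36-fold lower (log2 fold change -3.06, standard error (SE) 0.34, adjusted p = 0.000257).

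Fzd7 (chr1:59482424-59486955), which acts in beta-catenin signalling and in gastrulation movements, fell less. Its level was 72.4, 69.3, 57.1 and 93.9 CPM at E12.5, in the same order of litters, and at P0 it was 28.0, 31.4, 37.1 and 47.6 CPM. The groups did not overlap, but NPD30 at P0 came within 10 CPM of NPD4 at E12.5. The log2 fold change was -1.02 (SE 0.25, adjusted p = 0.0108), 2.03-fold lower at P0. With NDP10.2 and NPD9.2 left out the log2 fold change was -0.85 and the adjusted p 0.0812.

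Fzd1 (chr5:4753839-4758035), the receptor closest to Fzd7 and Fzd2 in sequence, measured 38.9, 41.2, 31.7 and 42.8 CPM at E12.5 and 6.92, 8.94, 4.94 and 15.01 CPM at P0. Its E12.5 litters were the most even of the family on a relative scale, and the P0 litters were all lower, with NPD30 above the rest. The mean was 4.32-fold lower at P0 (log2 fold change -2.11, SE 0.34, adjusted p = 0.00148).

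Of the subfamily Fzd3/6, Fzd3 (chr14:65192449-65262463), a planar cell polarity receptor needed for axon tracts, gave the smallest adjusted p of the family. The E12.5 litters measured 34.4, 38.6, 43.9 and 27.3 CPM, and the P0 litters 5.66, 5.19, 5.41 and 5.46 CPM. The P0 litters were nearly equal, with a mean of 5.43 ± 0.193 CPM (SD, n = 4), and NPD30 was not set apart. The gene was 6.63-fold lower at P0 (log2 fold change -2.73, SE 0.26, adjusted p = 0.000112).

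Fzd6 (chr15:39006034-39038188), which acts with Fzd3 in neural tube closure and orients hair follicles, did not pass the test. It measured 20.5, 18.5, 14.02 and 12.05 CPM at E12.5 and 3.77, 3.46, 8.48 and 12.1 CPM at P0. The stages met in 1 litter each, since NPD30 equalled NPD9.2 within 0.1 CPM. The log2 fold change was -1.22 (SE 0.43, adjusted p = 0.0569). Without NPD30 the adjusted p was 0.0126, and DESeq2 (0.0262) and limma-voom (0.0343) also called it lower.

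Of the subfamily Fzd4/9/10, Fzd4 (chr7:89404355-89413134), the receptor for Norrin in retinal and other blood vessels, was called lower with overlapping litters. It measured 35.6, 41.6, 21.04 and 24.1 CPM at E12.5 and 7.08, 10.8, 13.2 and 21.2 CPM at P0. NPD30 lay just above NPD4, and the other P0 litters lay below all E12.5 litters. The log2 fold change was -1.22 (SE 0.37, adjusted p = 0.0287), and leaving out 1 litter at a time kept the call in 3 of 8 fits, where the adjusted p ranged from 0.00555 to 0.0800. It was lost without NDP10.2, NPD3, NPD26, NPD27 or NPD28, each in turn.

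Fzd9 (chr5:135248938-135251230), known for its part in bone formation, measured 12.03, 9.37, 7.98 and 24.3 CPM at E12.5 and 1.89, 1.15, 2.94 and 3.18 CPM at P0. NPD9.2 was the high litter at E12.5, and all P0 litters lay below. The log2 fold change was -2.53 (SE 0.49, adjusted p = 0.00367).

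Fzd10 (chr5:128600844-128604093), which is expressed in the dorsal neural tube and limb of the embryo, had the largest fitted fall of the family and the lowest level at P0. It measured 21.2, 8.0, 5.68 and 14.3 CPM at E12.5, and the P0 libraries held 1, 10, 0 and 6 reads, or 0.157, 1.44, 0 and 0.910 CPM. NPD26 and NPD28 were thus at or below the 3-read level, where the size of a fold change is poorly determined. The log2 fold change was -4.27 (SE 0.85, adjusted p = 0.00418).

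Of the subfamily Fzd5/8, Fzd8, a receptor studied in the forebrain and kidney that binds Wnt3a, measured 35.9, 22.6, 21.3 and 42.3 CPM at E12.5. It measured 3.30, 3.03, 5.41 and 8.79 CPM at P0, with no overlap and with NPD30 highest. The gene was 5.91-fold lower at P0 (log2 fold change -2.56, SE 0.41, adjusted p = 0.00134).

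Fzd5 (chr1:64730558-64737751), needed for yolk sac vessels, for the eye and for Paneth cells of the gut, showed no such fall. It measured 9.44, 9.37, 5.08 and 10.1 CPM at E12.5 and 6.13, 6.63, 8.24 and 10.3 CPM at P0, and the stages overlapped over most of their range. The log2 fold change was -0.11 (SE 0.36, adjusted p = 0.853). Its 95% interval, from 4 litters per stage, ran from -0.90 to 0.68 on the log2 scale. The data are thus compatible with a fall or a rise within these bounds.

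**Figure D2:**
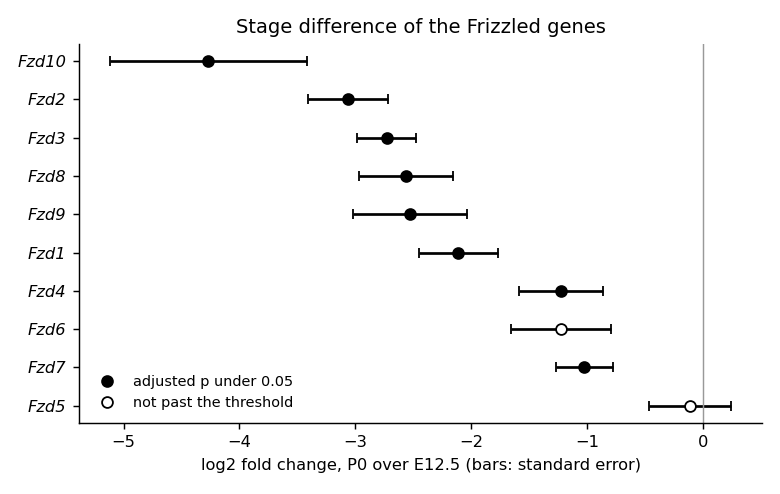
Log2 fold change of each Frizzled gene, P0 over E12.5, with bars that show the standard error from the edgeR fit. The intervals of all members but Fzd5 lie below 0, and Fzd6 lies below 0 without passing the adjusted threshold (adjusted p = 0.0569).

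Some litters were at the same extreme for most members, but the ranks were not alike throughout. The lowest P0 litter was NPD26 for 3 genes, NPD27 for 5 and NPD28 for 2. At E12.5 NPD9.2 was highest for 5 genes and lowest for 2. NPD30 was the highest P0 litter for 8 of the 10 genes, the exceptions being Fzd3 and Fzd10, and it was also the P0 litter with the lowest leukocyte genes (5.03), the highest notochord genes (6.70 against 5.15 to 5.85) and the highest cartilage genes (7.49). NPD4 was the lowest E12.5 litter for 8 of the 10, the exceptions being Fzd6 and Fzd3, of which it was the highest. It had the lowest muscle (4.44), notochord (5.74) and cartilage genes (5.51) and the highest neural (5.66) and endothelial genes (4.27) of that stage. NDP10.2 (3 genes) or NPD9.2 (5 genes) was the highest E12.5 litter for 8 of the 10, and these are the libraries with the larger share of ambiguous reads. The part of other cells and of the ambiguous reads in these ranks was not tested.

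Levels of different genes were compared as CPM per kilobase of exon. At E12.5 Fzd2 led with 44.5 ± 15.4 CPM per kilobase (SD, n = 4), followed by Fzd7 with 16.1 ± 3.39 and Fzd1 with 9.21 ± 1.17, and the litters of these neighbours did not overlap. Then came Fzd9, Fzd8, Fzd4, Fzd10, Fzd6 and Fzd3, from 5.86 down to 2.82, and no neighbours among them were separated beyond their spread. Fzd5 was lowest, at 1.23 ± 0.332, apart from Fzd3. At P0 the order began with Fzd7 at 7.95 ± 1.89 CPM per kilobase (SD, n = 4) and Fzd2 at 5.32 ± 1.90. The ranges of these genes overlapped between litters, although Fzd7 exceeded Fzd2 in 4 of the 4. Fzd1 followed at 2.13, apart from Fzd2, then Fzd4, Fzd6, Fzd5, Fzd9 and Fzd8 from 1.95 to 0.860 with overlapping neighbours, then Fzd3 at 0.424 ± 0.0151, apart from Fzd8, and Fzd10 at 0.193. The gene that was lowest at E12.5, Fzd5, was thus in the sixth place at P0 while its own level did not pass the test.

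Summed over the family, the level was 118, 83.8, 68.2 and 117 CPM per kilobase in the litters at E12.5, and at P0 it was 16.7, 17.9, 22.2 and 32.8. The mean sum at E12.5 was 4.31 times that at P0. Within this sum the subfamily Fzd1/2/7 took 72.2 ± 1.24% at E12.5 and 69.3 ± 3.05% at P0 (SD, n = 4 each), with overlapping litters. Its members moved apart within it. The share of Fzd2 was 45.3 ± 4.95% at E12.5 and 23.6 ± 2.08% at P0, and that of Fzd7 was 17.01 ± 2.30% and 36.2 ± 2.88%, in both cases without overlap between the stages. The share of Fzd5 was likewise higher at P0 in every litter, 5.15 ± 0.401% against 1.28 ± 0.238%. Fzd8 and Fzd10 had lower shares in every P0 litter, and the shares of the other 5 members overlapped.

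**Figure D3:**
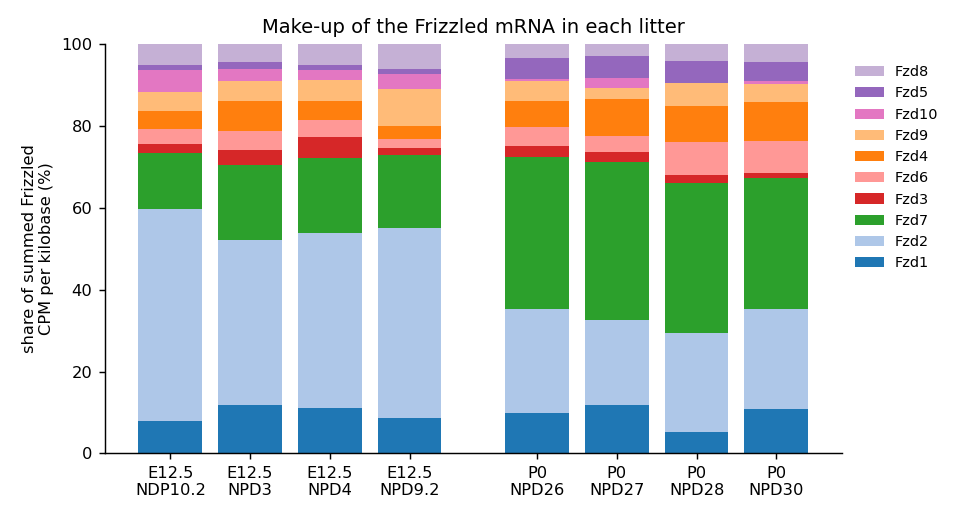
Share of each Frizzled gene in the summed CPM per kilobase of the family, in percent, for each litter as a stacked bar. Fzd2 takes the largest part of every E12.5 bar and Fzd7 the largest part of every P0 bar.

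Because a ratio of 2 genes within a library does not depend on the scaling between libraries, the 8 pairs within subfamilies were compared as log2 ratios of CPM per litter (prior count 2) by a two-sided exact permutation test. With 4 litters against 4 the smallest p this test allows is 0.0286. Of the 8 pairs, 5 reached it, with an exact permutation p of 0.0458 after Benjamini-Hochberg adjustment over the 8. The ratio of Fzd2 to Fzd7 was 1.62, 0.84, 0.90 and 1.08 on the log2 scale at E12.5, against -0.83, -1.19, -0.91 and -0.70 at P0. Fzd2 thus had more CPM than Fzd7 in 4 of 4 litters at E12.5 and fewer in 4 of 4 at P0, a difference of -2.02.

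The ratio of Fzd5 to Fzd8 also changed sign. It was -1.89, -1.24, -2.0 and -2.03 at E12.5 and 0.83, 1.05, 0.58 and 0.22 at P0, a difference of 2.46 on the log2 scale. The other pairs that reached the smallest exact permutation p were Fzd1 to Fzd7 (difference -1.15), Fzd3 to Fzd6 (-1.30) and Fzd4 to Fzd10 (2.63), the last with the few P0 reads of Fzd10 given above, so that its size moved from 3.46 with a prior count of 0.5 to 1.94 with a prior count of 5. Fzd1 to Fzd2 (0.87, exact permutation adjusted p = 0.0979), Fzd4 to Fzd9 (1.08, 0.0979) and Fzd9 to Fzd10 (1.54, 0.114) did not pass.

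**Figure D4:**
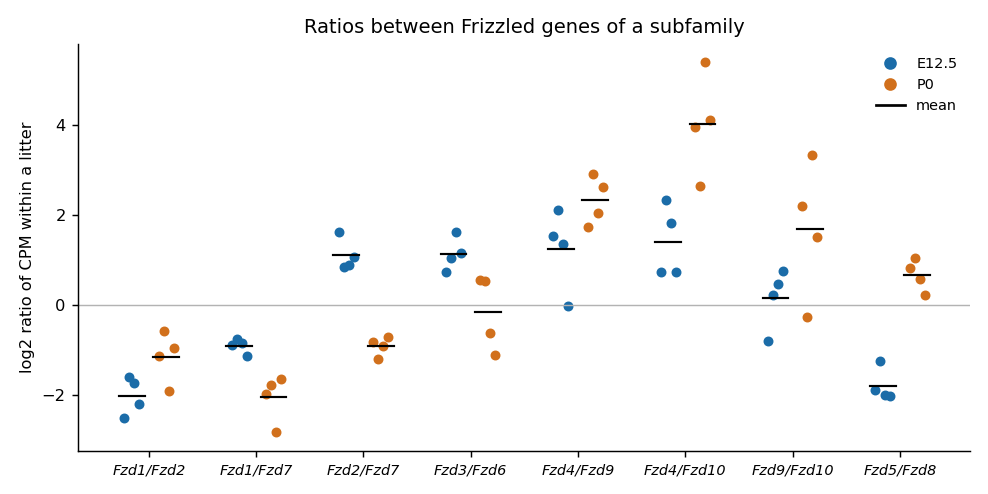
Log2 ratio of CPM for the 8 pairs of Frizzled genes within a subfamily, with 1 point per litter and short lines at the stage means. The stages do not overlap in 5 pairs, and in Fzd2/Fzd7 and Fzd5/Fzd8 they lie on opposite sides of 0.

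Each called member was matched with the tested gene whose log2 CPM followed it most closely over the 8 samples, among 12641 genes with a mean log2 CPM of at least 2 (12642 for Fzd10). All 8 samples share the difference between stages, so such correlations are high by construction for genes that differ between them. The closest were Fst for Fzd1 (Pearson r = 0.992), Lsr for Fzd2 (0.996), Tle1 for Fzd3 (0.992), Col11a1 for Fzd4 (0.984), Chd3 for Fzd7 (0.991), Dlg5 for Fzd8 (0.996), Nxn for Fzd9 (0.996) and Penk for Fzd10 (0.990).

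The other genes of Wnt signalling were taken from 12 lists by role. Smo of the Hedgehog pathway, a list of its own, was counted with them and was called lower. The lists held 91 genes, of which 81 were tested. At P0, 30 of them were lower and 5 were higher, 43.2% of those tested against the 27.9% over all genes, and 46 were not called. With NDP10.2 and NPD9.2 left out 22 were called, 26.8% of those tested against 15.2% of all genes, and with NPD30 as the only P0 litter 17, or 20% against 6.15%. DESeq2 and upper quartile scaling each called 44, and 45 were called with no filter.

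Among the ligands, 13 of 19 Wnt genes were tested, 7 fell and 1 rose. Wnt5a, the main ligand of planar cell polarity, went from 96.4 ± 17.3 CPM (SD, n = 4) to 26.8 ± 14.4 CPM (SD, n = 4), a log2 fold change of -1.85 (SE 0.34, adjusted p = 0.00290). Wnt7b fell to 0.446 CPM at P0 (log2 fold change -5.36, adjusted p = 0.000865), and Wnt2b fell as well (-1.43, adjusted p = 0.00914). At P0 Wnt7b was under the 3-read level in NPD28 (0.118 CPM) and NPD30 (0 CPM), so the size of its fall is poorly determined. Wnt16, a ligand known from bone and joints, rose from 1.2 to 10.96 CPM (log2 fold change 3.23, adjusted p = 0.00399). Wls, Porcn and Notum made up the list named Wnt secretion, although Notum is not itself a secretion gene. Of these 3 genes, 0 passed with edgeR, DESeq2 or limma-voom and 0 had an unadjusted p below 0.05. Wls went from 75.1 to 87.7 CPM. The Norrin gene Ndp was near the 3-read level at both stages, at 1.33 and 1.57 CPM (adjusted p = 0.875). Reck, which presents Wnt7 ligands to Frizzled, fell (log2 fold change -2.51, adjusted p = 0.00113).

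Of 7 co-receptors, 6 were tested and 2 fell, Ptk7 (log2 fold change -2.12, adjusted p = 0.00546) and Ror1 (-3.25, adjusted p = 0.000505). DESeq2 called 3 and limma-voom 2, and 5 had an unadjusted p below 0.05 with edgeR. Over all genes tested, 27.9% passed in either direction. Lrp6, the main partner of Frizzled in beta-catenin signalling, measured 216 ± 54.8 CPM (SD, n = 4) in the notochord and 201 ± 34.4 CPM (SD, n = 4) in the NP (log2 fold change -0.10, adjusted p = 0.803). Lrp5 (1.02, adjusted p = 0.0831), Ror2 (-1.05, adjusted p = 0.0830) and Ryk (-0.60, adjusted p = 0.123) did not pass.

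Of 9 genes that set receptor levels at the membrane, 8 were tested, 3 fell and 1 rose. The R-spondin receptor Lgr4 (log2 fold change -1.06, adjusted p = 0.0418) and the ligands Rspo3 (-1.66, adjusted p = 0.0351) and Rspo1 (-2.15, adjusted p = 0.0462) fell, and Lgr6 rose (2.97, adjusted p = 0.0223). At E12.5 Lgr6 was under the 3-read level in NDP10.2 (0 CPM), NPD3 (0.195 CPM) and NPD9.2 (0.492 CPM). Rspo1 was under it in NPD30 at P0 (0.152 CPM), so the sizes of both changes are poorly determined. Rnf43 (-0.32, adjusted p = 0.608) and Znrf3 (-0.70, adjusted p = 0.0756), the ubiquitin ligases that remove Frizzled from the membrane, did not pass.

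Secreted antagonists fell in 4 of 10 tested genes and rose in 1, of 12 listed. Those that fell included Sfrp1 (log2 fold change -3.93, adjusted p = 0.000180), Sfrp2 (-5.25, adjusted p = 7.18e-05) and Frzb (-1.53, adjusted p = 0.00813), 3 soluble proteins with a Frizzled-like cysteine-rich domain. Sostdc1, an antagonist of Wnt and BMP signalling, rose from 55.3 ± 25.5 CPM (SD, n = 4) to 529 ± 318 CPM (SD, n = 4), a log2 fold change of 3.26 (adjusted p = 0.00111).

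Inside the cell, 4 of 9 genes of Dishevelled and its regulators fell. These were the regulators Dact3 (log2 fold change -1.80, adjusted p = 0.00313), Dact1 (-3.09, adjusted p = 0.000933), Nkd1 (-3.02, adjusted p = 0.000484) and Nkd2 (-1.75, adjusted p = 0.0202). Dvl3 (-0.88, adjusted p = 0.0603), Dvl2 (-0.58, adjusted p = 0.114) and Dvl1 (0.63, adjusted p = 0.122) did not pass. Of the 9 genes, 7 had an unadjusted p below 0.05 with edgeR, and DESeq2 and limma-voom each called 5. Of the 8 genes of the beta-catenin destruction complex 0 were called by edgeR or limma-voom and 1 by DESeq2, and 1 had an unadjusted p below 0.05 with edgeR. Of the 4 TCF/LEF genes 1 fell, Tcf7l1 (-1.45, adjusted p = 0.0370).

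Of 5 Wnt target genes, 3 fell and 2 rose. On the log2 scale Axin2, a feedback inhibitor induced by beta-catenin, fell by 2.84 (adjusted p = 0.000520). Ccnd1, a cyclin of the G1 phase, fell by 2.12 on that scale (adjusted p = 0.000407). Sp5 fell as well (log2 fold change -5.19, adjusted p = 0.00270). At P0 Sp5 was at or under the 3-read level in NPD26 (0 CPM), NPD27 (0.433 CPM), NPD28 (0 CPM) and NPD30 (0.303 CPM). The size of its fall is thus poorly determined. Cd44, a hyaluronan receptor that leukocytes also express, rose (log2 fold change 3.79, adjusted p = 0.000123), as did Myc (1.15, adjusted p = 0.00447).

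Of 10 planar cell polarity genes 4 fell. They were Celsr2 (log2 fold change -2.94, adjusted p = 0.000466), Vangl2 (-2.92, adjusted p = 6.67e-05), Prickle1 (-1.42, adjusted p = 0.00685) and Prickle2 (-1.79, adjusted p = 0.00118), core proteins that work with Fzd3 and Fzd6 at cell junctions. Smo of the Hedgehog pathway, which belongs to the same receptor class as the Frizzleds, also fell (-1.03, adjusted p = 0.0143).

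**Figure D5:**
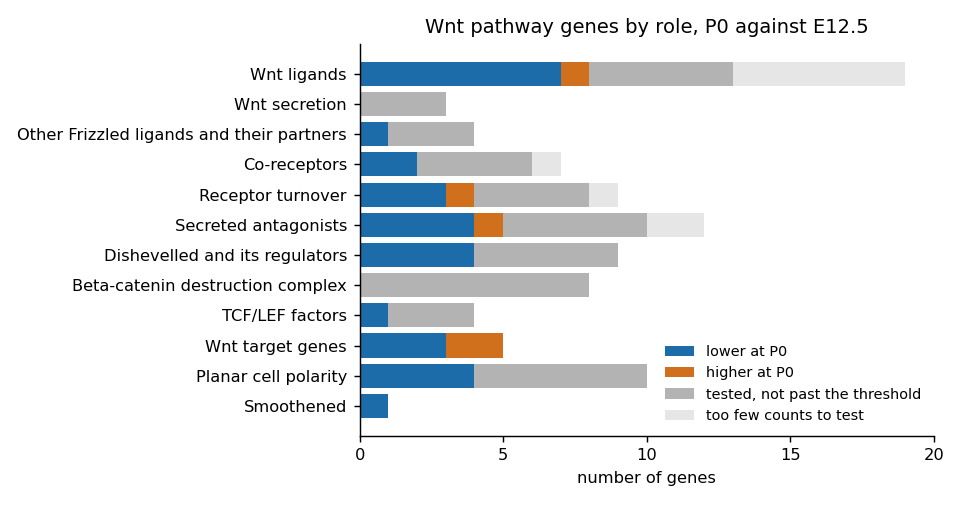
Number of genes that were lower, higher, not called or too low to test at P0 in each list of Wnt pathway genes, as stacked bars on a common count axis. The list Smoothened holds only the Hedgehog pathway gene Smo. By edgeR the destruction complex and Wnt secretion lists hold no called gene (DESeq2 called 1 in the destruction complex), and the Wnt ligands hold the most lower calls of the 12 lists (7).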

How the data were processed

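Total RNA of 8 litter pools (4 per stage, labelled as separate litters) was sequenced from TotalScript libraries as single-end reads. The submitters' processing notes name CASAVA 1.8.2, bcl2fastq, STAR 2.4.0j, HTSeq and edgeR, and the builds mm9 and GRCm38.p3. The deposited values are raw counts per gene on a Gencode M4 annotation, not normalized. Rows that name no gene (65.2 to 77.4% of the totals) were left out. Symbols were matched for 42462 of the 43346 identifiers. CPM used TMM library sizes, log2 CPM a prior count of 2, and exon lengths came from Gencode M21, a later release than the authors counted on. Genes passing filterByExpr (minimum count 10, minimum total 15) were tested with edgeR 4.0.16 (R 4.3.3, robust quasi-likelihood F-test, Benjamini-Hochberg over all genes tested, called below 0.05). The script was tested on simulated counts. Alternatives used DESeq2 1.42.0, limma 3.58.1 (voom), other scaling and filters, and left out litters. Ratios used an exact permutation test in Python 3.11.15 with scipy 1.17.1.

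The members and all gene lists were chosen with earlier results of these data known. The genes named were the 10 members, up to 4 called genes per pathway list by highest mean CPM, the tested Ndp, Lrp5, Lrp6, Ror2, Rnf43 and Znrf3, and for each called member its most correlated gene. Wls, Porcn, Notum, Ryk, the Dvl genes, Sp5 and the markers were named outside that rule, after their values were seen. The depth of 4442775 to 8904050 counted reads per library gave, on TMM library sizes, a 3-read level of 0.353 to 0.738 CPM, which covers counting error only.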

Additional observations from a re-analysis of the deposited data

Results flagged for a closer look

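In the groups of 4 litters, 1 of the 20 sets of Frizzled values (10 genes in each stage) held a litter set apart from the rest, and chance gives about 1 in 20. The log2 CPM of Fzd5 was 2.43 in the E12.5 litter NPD4 and 3.28 to 3.38 in the other E12.5 litters. The gap made up 0.891 of the range of the group, above Dixon's critical value for 4 samples. NPD4 was the lowest E12.5 litter for 8 of the 10 Frizzled genes.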

How the results depend on the processing

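The directions of the 8 called Frizzled genes held under every alternative run. The number called was 7 to 9 when 1 litter was left out, 9 with DESeq2, limma-voom, upper quartile scaling or no filter, and 7 of 8 tested when at least 10 counts were required in every sample, which removed Fzd9 and Fzd10. It was 5 with NDP10.2 and NPD9.2 left out and 2 with NPD30 as the only P0 litter, fits with fewer samples, in which 22 and 17 pathway genes and 2581 and 1054 of all genes were called, against 4321. Fzd5 turned to a log2 fold change of 0.088 with NDP10.2 and NPD9.2 left out, 0.34 with NPD30 alone, and ranged from -0.31 to 0.0016 when 1 litter was left out. The cause was not tested. Fzd6 passed with DESeq2, limma-voom, upper quartile scaling, no filter or the stricter filter, and without NPD30. Upper quartile scaling moved the median log2 fold change of all genes from 0.04 to -0.11, and no filter on low counts, with 32299 genes tested and 15.2% called, moved it to 0.45. With 1 litter left out the exact permutation test of the ratios cannot reach 0.05, so these say nothing of their stability. Prior counts of 0.5 and 5 changed no call of the 8 ratios, and moved Fzd9 to Fzd10 from 1.54 to 2.26 and 1.03. Shares computed from CPM not divided by length moved in 12 of 20 cases, at E12.5 to 37.8% for Fzd2, 9.12% for Fzd3 (from 3.18%), 3.09% for Fzd9 (from 5.88%) and 2.0% for Fzd5 (from 1.28%). No paired analysis was possible, because embryos and pups came from separate litters that the labels do not link in pairs. Depth limits Fzd10 at P0.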
